A study of Mus musculus with 16 samples.

Results

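The interleukin-1 and interleukin-18 axis is described here by 8 genes, Il1a, Il1b, Il1rn, Il1r2, Il1rap, Il18, Il18bp and Nlrp3, in monocytes of NFAM1+/+ and NFAM1-/- mice. The genes were chosen by symbol with earlier results of these data known, and 8 of 8 are listed among the 13085 genes of the expression table. Their shares and medians set against all genes are therefore descriptions. The 16 libraries were made from cells of C57BL/6 mice that were left without a stimulus or were given IFN-γ and then CD40L (1 µg/mL), which engages CD40 on monocytes, and were taken after 6 or 24 h, with 4 libraries for each stimulus and time. NFAM1-/- mice lack exons 2 and 3 of Nfam1, which encodes an ITAM-bearing receptor, and NFAM1+/+ mice are the wild type. The labels name the source as PBL monocytes, whereas the methods describe enrichment of monocytes from bone marrow, and other cells that pass such an enrichment stay in the sample. The labels give no age of the mice and do not tie libraries to mice. The paper names fewer mice of each genotype than there are libraries, so some libraries share a mouse. The p-values treat all libraries as independent and measure only the spread between libraries, which may be technical. In the comparisons of stimulus and time each group pools both genotypes without a genotype term. There the spread also holds any difference between the genotypes.

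IL-1α (Il1a) and IL-1β (Il1b) are inflammatory cytokines that signal through a receptor completed by the accessory chain Il1rap. Il1rn encodes the receptor antagonist, which occupies the receptor without signalling, and Il1r2 encodes a decoy receptor that binds the cytokines without signalling. IL-18 (Il18) drives IFN-γ production by lymphocytes and is neutralised by the secreted binding protein Il18bp. IL-1β and IL-18 are made as inactive precursors that caspase-1 cleaves inside inflammasomes, of which Nlrp3 is a sensor. The values below are of RNA, and neither cleavage nor secretion was measured.

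Levels are CPM, reads of a gene scaled by library size. Libraries held 48295939 to 88514341 reads on listed genes, so that every value of the 8 genes rests on 118 to 80085 reads. The reads of a library divided by its scaled size ran from 0.756 to 0.775 at 6 h without the stimulus and from 1.24 to 1.32 with it, and from 0.776 to 0.788 and 0.970 to 0.997 at 24 h. Monocyte markers were listed for 9 of 9 genes, with a summed level of 22518 to 30656 CPM in unstimulated and 8292 to 11582 CPM in stimulated libraries. Lyz2 had the highest median of the 9 in each group. It was not most of the sum in stimulated libraries at 6 h, with 3624 CPM against a median sum of 9109 CPM. The group medians of 7 of the 9 were lower with the stimulus at both times, whereas Ly6c2 (424 against 2449 CPM at 6 h) and Fcgr1 (31.6 against 715 CPM at 6 h) were higher. Fewer cells of a type and less RNA per cell cannot be told apart in such bulk samples. Neutrophil markers were listed for 12 of 12 genes, with a summed level of 336 to 606 CPM in the other groups and of 1114 to 1657 CPM in unstimulated libraries at 24 h, and natural killer cell markers for 0 of 6. B cell markers, 4 of 7 listed, summed to 187 to 265 CPM without and 378 to 551 CPM with the stimulus at 6 h, and to 135 to 209 and 40.7 to 51.3 CPM at 24 h. Dendritic cell markers, 6 of 6 listed, summed to 141 to 303 CPM in unstimulated libraries at 24 h and to 34.5 to 67.0 CPM in the other groups. The markers did not move together. In unstimulated libraries at 24 h the medians of Flt3 (104 CPM), Cd209a (78.0 CPM) and Siglech (14.4 CPM) were the highest of the groups. Those of Zbtb46 (5.62 CPM), Clec9a (7.39 CPM) and Xcr1 (0.421 CPM) were below the stimulated libraries of both times. Of the libraries taken at 24 h, 4 carry 1 genotype in their title and the other in their tag, numbered 44, 46, 56 and 58. Each group of 4 libraries holds 2 of each genotype whichever label is used, so these libraries enter the comparisons of stimulus and time but not the main comparison of genotypes. Nfam1, counted over the whole gene with its undeleted exons, was at 432 and 408 CPM in unstimulated NFAM1+/+ and at 299 and 321 CPM in unstimulated NFAM1-/- libraries at 6 h. With the stimulus it was at 133 and 129 CPM against 135 and 127 CPM, so Nfam1 did not separate the libraries labelled NFAM1+/+ and NFAM1-/- there. At 24 h Nfam1 was at 495 (NFAM1+/+), 441 (NFAM1-/-), 463 (title NFAM1+/+) and 391 CPM (title NFAM1-/-) without and at 252, 201, 271 and 223 CPM with the stimulus, in the same order.

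The 3 cytokine genes responded differently to IFN-γ plus CD40L. At 6 h Il1a and Il18 rose and Il1b fell, and at 24 h Il1a alone of the 3 was still more than 2-fold above the unstimulated cells. Genes were called where limma gave a change of 2-fold or more and the p adjusted by Benjamini-Hochberg over all genes tested was under 0.05. At 6 h 6 of the 8 genes were called, 5 higher and 1 lower, where 39.2% of the 12306 genes tested were called, and their median log2 fold change was 1.93 against -0.13 over all genes. At 24 h 4 of the 8 were called, 3 higher and 1 lower, against 32.7% of genes tested, with medians of 0.50 and 0.02.

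Il1a was at 6.34, 6.10, 4.63 and 3.31 CPM in unstimulated libraries at 6 h and at 45.7, 30.2, 28.3 and 19.8 CPM with the stimulus. The lowest stimulated library lay above the highest unstimulated one, and the log2 fold change was 2.59 (SE 0.30, limma adjusted p = 3.83e-07, n = 4 per group). At 24 h Il1a was at 1.65, 3.22, 2.68 and 1.36 CPM without and at 12.2, 14.7, 14.05 and 8.32 CPM with the stimulus, again without overlap, and the log2 fold change was 2.52 (SE 0.30, limma adjusted p = 6.45e-07). Its level fell between 6 and 24 h in both conditions, by 1.23 on the log2 scale without the stimulus (limma adjusted p = 0.00164) and by 1.30 with it (limma adjusted p = 7.39e-04). Exon bases of Il1a are shared with an antisense gene, Gm14023, over 222 of 1974 bases, and the libraries carry no strand.

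Il1b went the other way at 6 h. It was at 324, 307, 263 and 216 CPM in unstimulated libraries at 6 h and at 192, 131, 98.1 and 72.4 CPM with the stimulus, so that every stimulated library was below every unstimulated one. The log2 fold change was -1.25 (SE 0.43, limma adjusted p = 0.0145). This call depended on 1 library, since without the NFAM1-/- stimulated library 12 the log2 fold change was -1.02 with a limma adjusted p of 0.0529. With all libraries it was -1.98 when scaled by total reads and -1.85 after quantile normalization. Relative to the median of all genes Il1b was at -1.12 in the deposited scaling and by total reads, and at -1.62 after quantile normalization. At 24 h Il1b was at 55.1, 117, 112 and 32.7 CPM without and at 109, 170.0, 116 and 38.3 CPM with the stimulus, the groups overlapped, and the log2 fold change of 0.45 (95% interval -0.46 to 1.37) did not pass the test (limma adjusted p = 0.352). In unstimulated cells Il1b fell by 1.98 on the log2 scale from 6 to 24 h (SE 0.43, limma adjusted p = 7.66e-04). Exons of Il1b share 25 of 1907 bases with Il1bos on the other strand. The spread between libraries of a group was wider for Il1b than for the other members at 24 h, with an SD of 0.88 and 0.92 on the log2 scale.

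Il18 was at 11.7, 15.7, 12.1 and 8.92 CPM in unstimulated libraries at 6 h and at 96.4, 96.4, 106 and 101 CPM with the stimulus. This is a log2 fold change of 3.07 (SE 0.17, limma adjusted p = 1.71e-11), with no overlap of the groups. At 24 h Il18 was at 9.54, 16.5, 12.5 and 12.7 CPM without and at 17.4, 14.7, 20.3 and 21.6 CPM with the stimulus, and the groups overlapped. The log2 fold change there was 0.54 (SE 0.17, limma adjusted p = 0.00744), which passed the test and stayed under 2-fold, and it was 0.21 (limma adjusted p = 0.259) when scaled by total reads. In stimulated cells the level fell by 2.45 on the log2 scale from 6 to 24 h (SE 0.17, limma adjusted p = 5.97e-10), whereas in unstimulated cells the difference was 0.08 (95% interval -0.27 to 0.43).

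**Figure D1:**
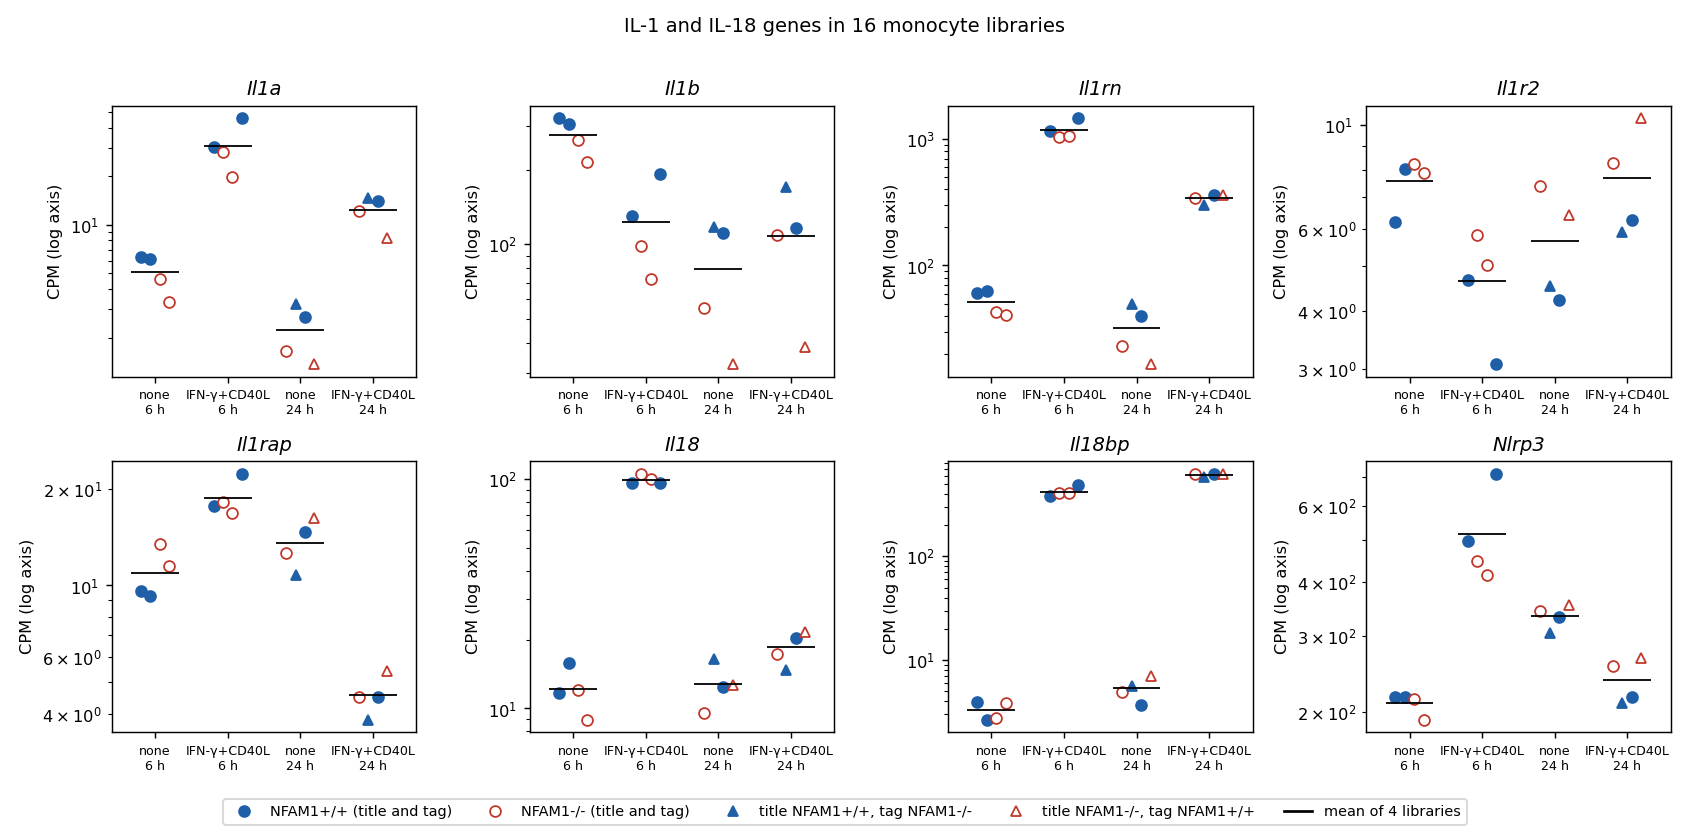
Level of each of the 8 genes in the 16 libraries, in CPM on a log axis, by stimulus and time. Each point is 1 library, circles have the same genotype in title and tag, triangles differ, filled blue points are NFAM1+/+ by the title, open red points are NFAM1-/- by the title, and the line is the mean of 4 libraries. Il18bp and Il1rn are far above the unstimulated libraries at both times, whereas Il18 is high at 6 h and close to the unstimulated libraries at 24 h.

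The 2 secreted inhibitors rose more than any cytokine gene of the axis. Il18bp was at 3.93, 2.65, 2.78 and 3.86 CPM in unstimulated libraries at 6 h and at 483, 379.7, 405 and 409 CPM with the stimulus, a log2 fold change of 7.0 (SE 0.16, limma adjusted p = 9.57e-17). At 24 h it was at 4.93, 5.64, 3.73 and 7.04 CPM without and at 626, 586, 625 and 623 CPM with the stimulus, a log2 fold change of 6.89 (SE 0.16, limma adjusted p = 3.05e-16). Il18bp RNA was thus 128-fold and 118-fold above the unstimulated cells in the deposited scaling. At 6 h its log2 fold change was 6.27 when scaled by total reads and 6.46 after quantile normalization. The log2 responses at the 2 times differed by -0.12 (95% interval -0.59 to 0.36, limma adjusted p = 0.660). Exons of Il18bp share 80 of 3026 bases with Numa1 on the other strand.

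Il1rn was at 60.6, 63.4, 42.7 and 40.4 CPM in unstimulated libraries at 6 h and at 1459, 1151, 1037 and 1057 CPM with the stimulus. Its log2 fold change was 4.52 (SE 0.25, limma adjusted p = 2.83e-11), or 22.9-fold, in the deposited scaling. It was 3.79 when scaled by total reads and also 3.79 after quantile normalization. At 24 h it was at 23.1, 49.4, 40.0 and 16.5 CPM without and at 342, 302, 360.1 and 364 CPM with the stimulus, a log2 fold change of 3.53 (SE 0.25, limma adjusted p = 1.11e-09). The groups did not overlap at either time. In stimulated cells Il1rn fell by 1.77 on the log2 scale from 6 to 24 h (SE 0.25, limma adjusted p = 6.60e-06).

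The receptor genes were low, and in the deposited scaling neither changed by 2-fold at 6 h, whereas Il1rap was called lower at 24 h. Il1rap, the accessory chain, was at 9.60, 9.25, 13.4 and 11.5 CPM in unstimulated libraries at 6 h and at 22.2, 17.7, 18.2 and 16.8 CPM with the stimulus, a log2 difference of 0.78 (SE 0.15, limma adjusted p = 1.35e-04) that did not reach 2-fold. Scaled by total reads it was 0.053 (limma adjusted p = 0.744) and after quantile normalization 0.96, so the difference at 6 h depended on the scaling. Relative to the median of all genes Il1rap was higher by 0.91 in the deposited scaling and by total reads, and by 1.18 after quantile normalization. At 24 h it was at 12.7, 10.8, 14.7 and 16.2 CPM without and at 4.51, 3.83, 4.49 and 5.43 CPM with the stimulus, a log2 fold change of -1.57 (SE 0.15, limma adjusted p = 4.84e-08). In the deposited scaling the stimulated libraries were the higher ones at 6 h and the lower ones at 24 h, without overlap at either time. Il1rap shares 552 of 11360 exon bases with Gm20319 on the other strand.

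Il1r2, the decoy receptor, was at 6.19, 8.06, 8.27 and 7.89 CPM in unstimulated libraries at 6 h and at 3.07, 4.65, 5.82 and 5.0 CPM with the stimulus. The log2 difference of -0.74 (SE 0.23, limma adjusted p = 0.0063) passed the test and was under 2-fold, but was -1.47 and over 2-fold when scaled by total reads and -0.49 (limma adjusted p = 0.0519) after quantile normalization. At 24 h it was at 7.41, 4.51, 4.23 and 6.41 CPM without and at 8.30, 5.89, 6.27 and 10.3 CPM with the stimulus, with overlap, and the log2 difference of 0.45 (95% interval -0.02 to 0.93) did not pass (limma adjusted p = 0.0792). Neutrophils are known to carry this receptor, and the summed neutrophil markers were highest in the unstimulated libraries at 24 h (1114 to 1657 CPM). Il1r2 was not highest there, and the part of neutrophils in its level was not tested.

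Nlrp3 was at 216, 216, 214 and 191 CPM in unstimulated libraries at 6 h and at 713, 498, 446 and 415 CPM with the stimulus, a log2 fold change of 1.28 (SE 0.13, limma adjusted p = 6.64e-08). At 24 h it was at 342, 304, 332 and 354 CPM without and at 255, 210.0, 216 and 266 CPM with the stimulus, a log2 difference of -0.50 (SE 0.13, limma adjusted p = 0.00196) that was under 2-fold. All stimulated libraries lay above the unstimulated ones at 6 h and below them at 24 h. The call at 6 h depended on the scaling, with a log2 fold change of 0.39 after quantile normalization and 0.54 when each library was scaled to its own total of reads. That scaling moved the median log2 fold change of all genes at 6 h from -0.13 to -0.86, and relative to the median of all genes Nlrp3 was higher by 1.40 on the log2 scale under both scalings, and by 0.62 after quantile normalization.

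**Figure D2:**
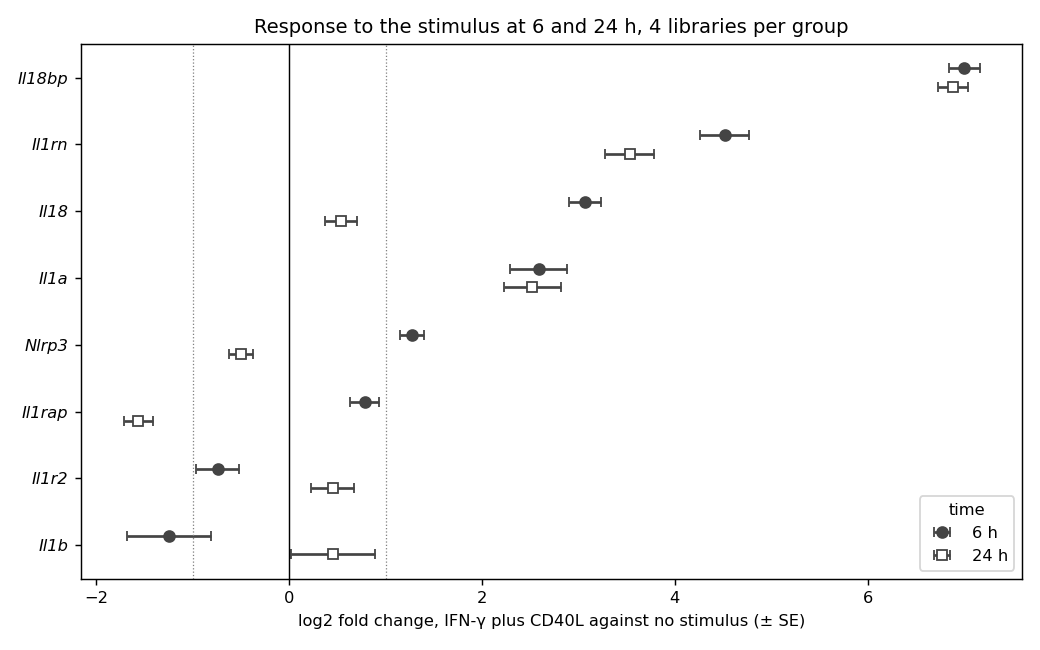
Log2 fold change of each gene with IFN-γ plus CD40L against no stimulus at 6 h (filled circles) and 24 h (open squares), with bars of 1 SE from limma and 4 libraries per group. The dotted lines mark a 2-fold change. Il18bp, Il1rn and Il1a stay to the right at both times, Il18 moves from 3.07 to 0.54, and Il1rap and Nlrp3 change sides in the deposited scaling. Scaled by total reads Il1rap is at 0.053 at 6 h, and after quantile normalization at 0.96.

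The change of the response with time was tested as the response at 24 h minus that at 6 h. Of the 8 genes, 3 were called lower and 2 higher, where 31.6% of all genes were called. The response was smaller at 24 h for Il18 by 2.53 (SE 0.24, limma adjusted p = 8.24e-08), and the log2 difference was -2.35 for Il1rap (SE 0.21, limma adjusted p = 5.63e-08) and -1.77 for Nlrp3 (SE 0.18, limma adjusted p = 2.18e-07). It was 1.70 for Il1b (SE 0.61, limma adjusted p = 0.0214) and 1.20 for Il1r2 (SE 0.32, limma adjusted p = 0.00331). For Il1rn it was -0.99 (SE 0.36, limma adjusted p = 0.0229), just under 2-fold, and it was called when any 1 of libraries 1, 2, 11, 12, 43, 46, 57 and 58 was left out, with the lowest value of -1.27 without library 46. It did not pass after quantile normalization, at -0.34 (limma adjusted p = 0.450), or when scaled by total reads, at -0.59 (limma adjusted p = 0.142). For Il1a it was -0.07 (95% interval -0.95 to 0.82).

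Time in culture alone changed fewer of the genes. Without the stimulus 2 of the 8, Il1b and Il1a, were called between 24 and 6 h, both lower, against 20.4% of genes tested. Nlrp3 and Il18bp were higher at 24 h by 0.67 and 0.68 on the log2 scale (limma adjusted p = 2.15e-04 and 0.00138) and Il1rn lower, at -0.79 (limma adjusted p = 0.0128), all under 2-fold. Without library 44, an unstimulated library at 24 h, the log2 difference of Il1rn was -1.03 and was called, and without library 46 it was -0.51 and did not pass. In stimulated cells 5 of 8 were called, all lower at 24 h, against 33.2% of genes. The summed B cell markers were also lower there (40.7 to 51.3 against 378 to 551 CPM), and their part in the result was not tested. The 5 genes were Il18, Il1rap (-2.04, limma adjusted p = 1.57e-09), Il1rn, Il1a and Nlrp3 (-1.10, limma adjusted p = 4.82e-07). The call of Nlrp3 was lost without the stimulated NFAM1+/+ library 26, at -0.94, and after quantile normalization, at -0.58. In the scaling to each library's own total, Il1a at -0.93 and Nlrp3 at -0.73 were under 2-fold, and relative to the median of all genes the differences were -1.34 and -1.15 under both scalings. Il1r2, at 0.73 and under 2-fold in the deposited scaling, was called higher at 24 h there, at 1.11. The labels name no batch, so a difference in handling between the 6 h and the 24 h libraries and time cannot be told apart.

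Between genes, levels were compared per kilobase of exon, with exon lengths from GENCODE vM21, which may not be the annotation used for counting. The length of a gene covers all of its annotated exons, so it can exceed that of the transcript present. The order of genes and the ratios below depend on this choice. In unstimulated cells at 6 h Il1b was first, at 145 ± 25.4 CPM per kilobase (SD, n = 4), followed by Nlrp3 at 51.6 ± 2.97 and by Il18 at 11.7 ± 2.72 and Il1rn at 9.36 ± 2.15, which overlapped. Il1r2 was at 3.98 ± 0.501 and Il1a at 2.58 ± 0.715, and Il18bp at 1.09 ± 0.225 and Il1rap at 0.964 ± 0.170 overlapped at the lower end. With the stimulus at 6 h the antagonist Il1rn was first, at 212 ± 35.2 CPM per kilobase. Next came Il18bp at 139 ± 14.8, Nlrp3 at 128 ± 33.1, Il18 at 96.8 ± 4.39 and Il1b at 64.6 ± 27.1, and each of these overlapped its neighbour in this order. Il1a at 15.7 ± 5.48 lay below them, and Il1r2 at 2.43 ± 0.604 and Il1rap at 1.65 ± 0.212 were last.

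At 24 h the order without the stimulus began with Nlrp3 at 82.1 ± 5.22 CPM per kilobase, Il1b at 41.5 ± 21.9 and Il18 at 12.4 ± 2.77, none of which overlapped. From Il1rn at 5.83 ± 2.73 on, each gene overlapped its neighbour, and these were Il1r2 at 2.95 ± 0.80, Il18bp at 1.76 ± 0.458, Il1rap at 1.19 ± 0.208 and Il1a at 1.13 ± 0.440. With the stimulus at 24 h Il18bp was first at 203 ± 6.35, above all others. Il1rn at 61.8 ± 5.11, Nlrp3 at 58.4 ± 6.90, Il1b at 56.9 ± 28.4 and Il18 at 17.9 ± 2.98 followed, with overlap between neighbours. Il1a at 6.24 ± 1.45 and Il1r2 at 4.04 ± 1.08 overlapped, and Il1rap at 0.402 ± 0.0581 was last.

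**Figure D3:**
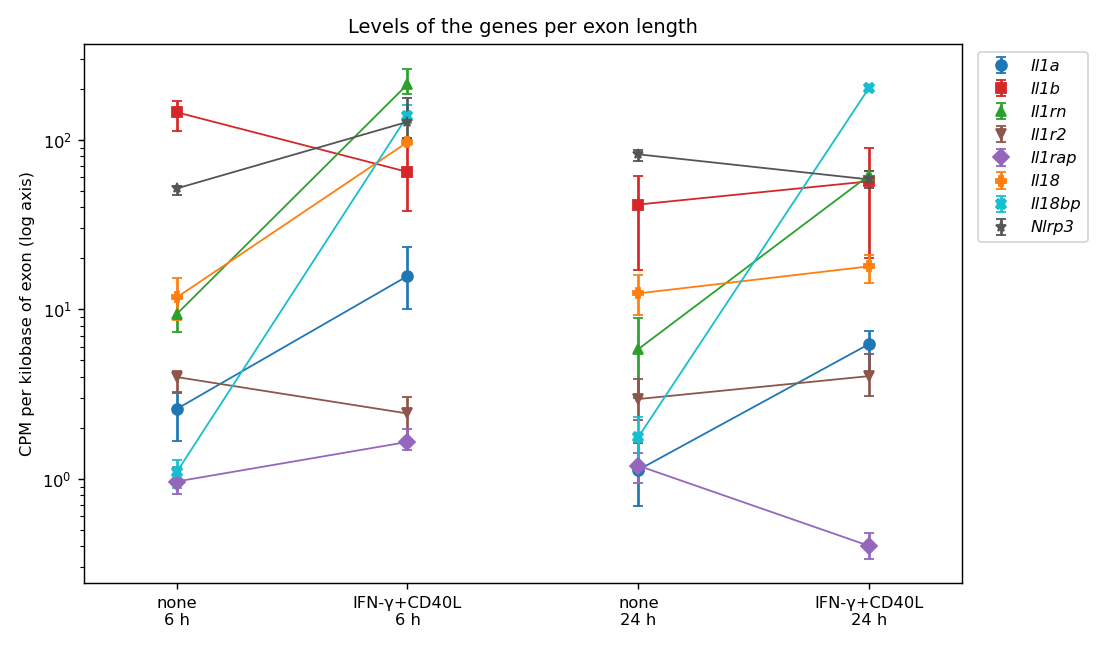
Levels per kilobase of exon, in CPM on a log axis, as the mean of 4 libraries with bars from the lowest to the highest library, and lines that join the unstimulated and stimulated groups of a time. Il18bp goes from the lower end of the order to 139 at 6 h and to the first place at 24 h, and Il1b leads only in unstimulated cells at 6 h.

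Ratios between genes of 1 library do not depend on the factor by which the library was scaled, though quantile normalization would change them. The antagonist Il1rn relative to Il1b plus Il1a, each per kilobase, was 0.0550 to 0.0697 in unstimulated libraries at 6 h and 2.13 to 3.98 with the stimulus. At 24 h the same ratio was 0.121 to 0.167 without and 0.565 to 2.71 with the stimulus, and the highest value, in library 58, is that of the lowest Il1b of the stimulated libraries. The ratio of Il18bp to Il18 was 0.0575 to 0.147 without and 1.30 to 1.71 with the stimulus at 6 h. At 24 h it was 0.102 to 0.189 without and 9.83 to 13.6 with the stimulus. The stimulated and unstimulated libraries did not overlap in either ratio at either time. These ratios are descriptions of RNA and were not tested.

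**Figure D4:**
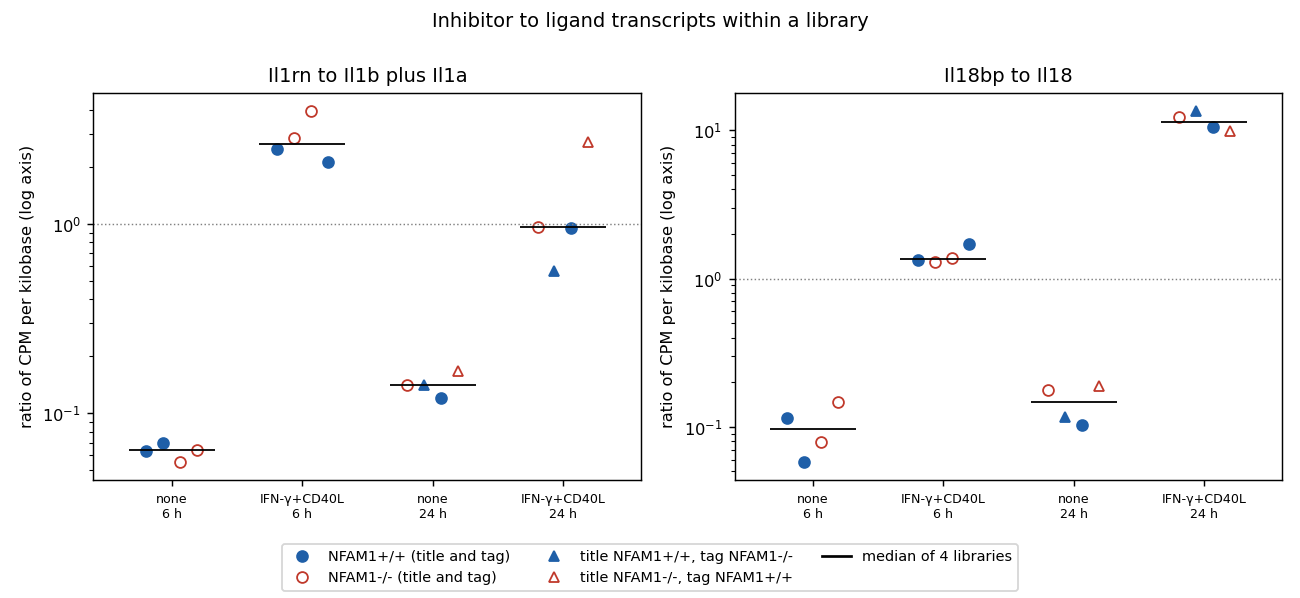
Ratio of inhibitor to ligand transcripts per kilobase within each library, on a log axis, for Il1rn to Il1b plus Il1a (left) and Il18bp to Il18 (right). Points are libraries with the same marks as in the plot of levels by library, the line is the median of 4, and the dotted line marks equal levels. The Il18bp to Il18 ratio has a median of 0.0964, 1.36, 0.146 and 11.4 from left to right.

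The promoters of Il18bp, which rose most, and of Il1a and Il1b, which lie on the minus strand of chromosome 2 and moved in opposite directions at 6 h, are shown as the 250 bases before the start site given by RefSeq (GRCm38.p6, minus strand, read 5′ to 3′). Capitals mark matches to the letters of 3 motifs. These are the core of the interferon-stimulated response element (GAAANNGAA), a κB site of NF-κB (GGNNTTTCC) and the AP-1 site (TGANTCA), on both strands.
Il18bp, chr7:102018233-102018482: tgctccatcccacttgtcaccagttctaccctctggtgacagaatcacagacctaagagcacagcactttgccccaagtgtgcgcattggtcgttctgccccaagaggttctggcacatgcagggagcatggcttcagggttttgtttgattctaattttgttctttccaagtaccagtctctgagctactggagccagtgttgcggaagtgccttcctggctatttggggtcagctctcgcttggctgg
Il1a, chr2:129309973-129310222: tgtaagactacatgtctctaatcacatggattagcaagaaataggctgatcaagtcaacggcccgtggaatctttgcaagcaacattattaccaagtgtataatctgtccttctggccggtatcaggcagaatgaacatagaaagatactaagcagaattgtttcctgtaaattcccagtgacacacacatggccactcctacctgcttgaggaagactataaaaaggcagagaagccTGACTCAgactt
Il1b, chr2:129371140-129371389: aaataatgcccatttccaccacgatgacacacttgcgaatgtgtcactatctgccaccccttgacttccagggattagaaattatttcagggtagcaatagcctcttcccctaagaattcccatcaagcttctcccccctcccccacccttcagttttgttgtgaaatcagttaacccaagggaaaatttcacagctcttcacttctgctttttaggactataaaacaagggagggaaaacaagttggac
No match to these 3 motifs was found for Il18bp or Il1b, and 1 for Il1a, the AP-1 letters in capitals.

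RefSeq gave 11 windows of 300 bases, from 250 bases before to 50 after a start site, for the 8 genes. The AP-1 letters were also in 1 of the 3 windows of Il1rn, the κB letters in the other 2 of Il1rn, which overlap and share the match, and in both windows of Nlrp3, and the response element core in Il1rap. Il18 and Il1r2 had no match to these 3. Of all 32851 windows, 8.56% held the response element core, 5.82% the κB letters and 7.81% the AP-1 letters. A match is a description of letters, and the build is not the one named in the processing notes of the files (GRCm39).

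Other genes of the pathway were read from a list of 66 that are not members, of which 55 are listed and 53 were tested. With the stimulus at 6 h 17 were called higher and 4 lower, where 39.2% of all genes tested were called. The median log2 fold change of the 53 was 0.42 against -0.13 over all genes. Gbp5, a guanylate-binding protein that promotes Nlrp3 assembly, went from 6.46 ± 1.85 to 4209 ± 142 CPM (SD, n = 4), a log2 fold change of 9.39 (SE 0.15, limma adjusted p = 2.08e-18). Il18rap, the accessory chain of the IL-18 receptor, went from 8.26 ± 0.769 to 192 ± 37.7 CPM, a log2 fold change of 4.52 (SE 0.25, limma adjusted p = 2.93e-11). Il33, another cytokine of the IL-1 family, went from 0.228 ± 0.129 to 4.45 ± 0.916 CPM, a log2 fold change of 4.44 (SE 0.63, limma adjusted p = 5.65e-06). The 3 largest falls were those of Naip1, a sensor of bacterial proteins, with a log2 fold change of -5.41 (limma adjusted p = 1.27e-12), Peli2, a ubiquitin ligase of receptor signalling, with -3.29 (limma adjusted p = 4.62e-12), and the inhibitory receptor Sigirr, with -1.78 (limma adjusted p = 2.22e-05).

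At 24 h 13 of the 53 were called higher and 10 lower, where 32.7% of all genes were called, with a median of 0.20 against 0.02. Gbp5 was still higher, with a log2 fold change of 8.51 (limma adjusted p = 2.85e-17), as were the 2 inflammatory caspases Casp4, which senses cytosolic lipopolysaccharide, with 4.14 (limma adjusted p = 6.35e-17), and Casp1, which cleaves the precursors of IL-1β and IL-18, with 2.39 (limma adjusted p = 3.35e-16). Casp1 was at 60.9 ± 3.28 CPM without and 319 ± 8.63 CPM with the stimulus at 24 h. Of the 3 largest falls, Elane with a log2 fold change of -5.99 (limma adjusted p = 3.04e-05) and Prtn3 with -3.94 (limma adjusted p = 1.62e-09) encode granule proteases of neutrophils and their precursors, and Elane is on the neutrophil marker list above. The third was Peli2, with -2.88 (limma adjusted p = 4.13e-11).

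From 6 to 24 h without the stimulus 4 of the 53 were called higher and 5 lower, where 20.4% of all genes were called. The sensor Nlrp1b rose by 2.38 (limma adjusted p = 1.56e-11), the ATP-gated channel P2rx7, which triggers Nlrp3, by 1.94 (limma adjusted p = 4.56e-09) and Peli2 by 1.33 (limma adjusted p = 2.13e-06). Ctsg and Prtn3, which encode granule proteases of neutrophils and their precursors, were lower, with log2 fold changes of -3.55 (limma adjusted p = 1.01e-05) and -3.06 (limma adjusted p = 1.12e-07). The summed neutrophil markers were instead higher at 24 h (1114 to 1657 CPM) than at 6 h (381 to 498 CPM) without the stimulus. Of that list only the medians of Mpo and Elane were lower. The part of neutrophils in these differences was not tested. In stimulated cells 4 were called higher and 12 lower, where 33.2% of all genes were called. The higher ones were led by P2rx7 at 2.23 (limma adjusted p = 2.84e-10), Peli2 at 1.74 (limma adjusted p = 3.31e-08) and Naip1 at 1.69 (limma adjusted p = 7.07e-06). Among the lower ones were Elane at -8.71 (limma adjusted p = 3.51e-07) and Prtn3 at -7.15 (limma adjusted p = 1.29e-12). Elane had 0 to 6 reads in stimulated libraries at 24 h, so its fitted values with that group depend on the 0.5 reads added and are no bound. Il33 had 12 to 44 reads in unstimulated and 162 to 295 reads in stimulated libraries at 6 h and 0 reads in all 8 libraries at 24 h. Against a floor of 3 reads per library it was at least 6.05-fold lower at 24 h without and at least 105-fold lower with the stimulus.

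The log2 response at 24 h minus that at 6 h was called higher for 2 of the 53 and lower for 12, where 31.6% of all genes were called. The median difference was -0.23 on the log2 scale, against 0.05 over all genes. Naip1 differed by 3.37 (limma adjusted p = 2.34e-07) and Sqstm1, an autophagy adaptor, by 1.37 (limma adjusted p = 7.03e-05). The lowest differences were -6.85 for Elane (limma adjusted p = 3.36e-04), -4.69 for Nlrp10 (limma adjusted p = 1.36e-08) and, from a fit that includes the libraries at 0, -4.24 for Il33 (limma adjusted p = 5.11e-04), which is no bound.

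The question of the study was how NFAM1 bears on monocyte activation. At 6 h, with 2 libraries per genotype, 0 of the 8 genes were called between NFAM1-/- and NFAM1+/+ in limma, where 0.0661% of the 12111 genes tested were called without and 0.033% with the stimulus. At an unadjusted p under 0.05 there were 1058 and 1522 genes, and 4 of the 8 in each condition. Without the stimulus both NFAM1-/- libraries lay below both NFAM1+/+ libraries for 4 of the 8, against 20.4% of all genes, and with it also for 4 of the 8, against 19% of all genes. They were Il1a, Il1b, Il1rn and Nlrp3 in both conditions. Both NFAM1-/- libraries lay above for 1 of the 8, Il1rap, without the stimulus, against 21.9% of genes, and for 2 of the 8, Il18 and Il1r2, with it, against 24% of genes.

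Il1b was at 192 and 131 CPM in stimulated NFAM1+/+ and at 98.1 and 72.4 CPM in stimulated NFAM1-/- libraries at 6 h, a log2 difference of -0.91 (95% interval -1.34 to -0.48, limma adjusted p = 0.260). Without the NFAM1+/+ library 10 it was -1.19 and was called (limma adjusted p = 0.0064), in a fit that takes the single library left to vary like the other groups, and without the other NFAM1+/+ library, 26, it was -0.63 and was not called. The other stimulated differences also leaned on library 26. Without it Nlrp3 was at -0.21, Il1rn at -0.14 and Il1a at -0.35, and without library 10 they were at -0.73, -0.48 and -0.95. The counts of library 26 differed from those of the other 3 stimulated libraries at 6 h by a chi-square of 69.8 to 114 per gene, against 19.0 to 28.8 among those 3. In unstimulated cells at 6 h Il1b was at 324 and 307 against 263 and 216 CPM, a log2 difference of -0.41 (95% interval -0.84 to 0.03, limma adjusted p = 0.617). Il1rn was at 60.6 and 63.4 against 42.7 and 40.4 CPM without the stimulus, a log2 difference of -0.58 (95% interval -0.81 to -0.34, limma adjusted p = 0.103), and differed by -0.31 (95% interval -0.54 to -0.07, limma adjusted p = 0.339) with it.

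Il1a differed by -0.67 (95% interval -1.22 to -0.11, limma adjusted p = 0.472) without and by -0.65 (95% interval -1.21 to -0.10, limma adjusted p = 0.357) with the stimulus. Nlrp3 differed by -0.10 (95% interval -0.42 to 0.23) without and by -0.47 (95% interval -0.79 to -0.15, limma adjusted p = 0.331) with the stimulus. Il18 differed by -0.39 (95% interval -0.76 to -0.02, limma adjusted p = 0.557) and 0.10 (95% interval -0.27 to 0.47), and Il18bp by 0.02 (95% interval -0.45 to 0.49) and -0.07 (95% interval -0.54 to 0.39). The receptors differed by 0.40 (95% interval 0.07 to 0.73, limma adjusted p = 0.466) and -0.18 (95% interval -0.51 to 0.15) for Il1rap, and by 0.19 (95% interval -0.34 to 0.72) and 0.51 (95% interval -0.02 to 1.04) for Il1r2. None of the 8 passed the adjustment over all genes.

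In the test of whether the response at 6 h differed between genotypes, 0 of the 8 genes passed in limma, where 0% of genes were called, 846 were at an unadjusted p under 0.05, and the smallest adjusted p over all genes was 0.209. The differences of the response ran from -0.58 for Il1rap to 0.49 for Il18 on the log2 scale. A model with 1 genotype effect common to both conditions, chosen after the values were seen, gave -0.66 for Il1b (95% interval -0.99 to -0.32, limma adjusted p = 0.153), -0.66 for Il1a (95% interval -1.03 to -0.29, limma adjusted p = 0.182) and -0.44 for Il1rn (95% interval -0.63 to -0.26, limma adjusted p = 0.103), and 0 of the 8 passed, against 0.124% of all genes with an adjusted p under 0.05. Over the other 53 pathway genes 0 were called in each of the 3 comparisons.

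**Figure D5:**
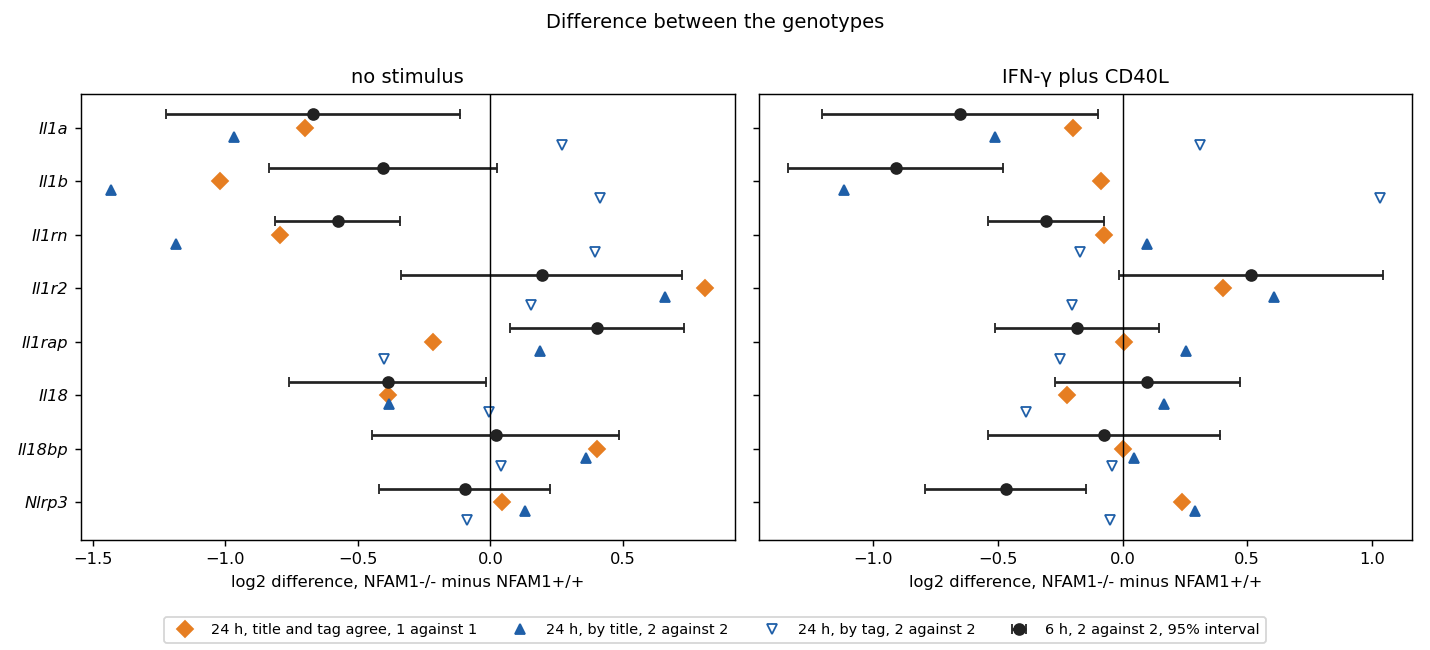
Difference of log2 CPM between NFAM1-/- and NFAM1+/+ libraries without (left) and with (right) IFN-γ plus CD40L. Black circles with 95% intervals are the 2 against 2 libraries at 6 h, diamonds the 1 against 1 libraries at 24 h whose labels agree, and filled and open triangles the same time grouped by the title or by the tag. The sign of Il1b at 24 h depends on the label used.

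At 24 h only 1 library per genotype and stimulus has labels that agree, so the difference has no replicate check. Without the stimulus Il1b was at 112 CPM in the NFAM1+/+ library and at 55.1 CPM in the NFAM1-/- library, Il1rn at 40.0 and 23.1 CPM, and Il1a at 2.68 and 1.65 CPM, so the 3 were lower in NFAM1-/-. Il18 differed by -0.39 and Il1rap by -0.22, whereas Il1r2 was higher in NFAM1-/- by 0.81, Il18bp by 0.40 and Nlrp3 by 0.043 on the log2 scale. With the stimulus Il1b was at 116 and 109 CPM, Il1rn at 360.1 and 342 CPM, Il1a at 14.05 and 12.2 CPM, Il18 at 20.3 and 17.4 CPM and Il18bp at 625 and 626 CPM, in the same order. Log2 differences of at least 1 were found for 3.05% of the 12164 genes without and 3.01% with the stimulus, and of the 8 for Il1b alone, at -1.02, without the stimulus.

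Grouped by the title alone, 2 libraries per genotype, Il1rn was called without the stimulus, at a log2 difference of -1.19 (SE 0.16, limma adjusted p = 0.0160), as 1 of the 8 where 0.222% of genes were called. Il1b differed by -1.43 (SE 0.41, limma adjusted p = 0.191) without and by -1.12 (SE 0.41, limma adjusted p = 0.197) with the stimulus, for which 0 of the 8 and 0.115% of genes were called. Both libraries of the title NFAM1-/- lay below both of the title NFAM1+/+ for 3 of the 8 without and 2 of the 8 with the stimulus, against 23.3% and 23.7% of genes, and above for 2 and 3 of the 8, against 22.2% and 25.2% of genes. At an unadjusted p under 0.05 there were 1455 and 2163 genes. Grouped by the tag alone, Il1b differed by 0.41 (SE 0.68) without and 1.03 (SE 0.68, limma adjusted p = 0.999) with the stimulus and 0 of the 8 were called, against 0.00822% and 0% of genes, with 233 and 342 genes at an unadjusted p under 0.05. By the tag 1 of the 8 without and 2 of the 8 with the stimulus lay below, against 11.6% and 14.5% of genes, and 0 of the 8 above, against 13.7% and 14.8% of genes. Nfam1 differed by -0.20 without and -0.30 with the stimulus by the title (limma adjusted p = 0.385 and 0.108), and by 0.039 and -0.023 by the tag (limma adjusted p = 1 in both). A genotype was not assigned from these values.

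The genes most like each member over the 16 libraries were found by the root mean square difference of log2 CPM after centring each gene on its own mean, so that a smaller value is a closer profile. Il1a was closest to Tnf (0.34), Bcl2a1b (0.34) and Sdc4 (0.37), and Il1b to Agpat4 (0.49), Cd300e (0.50) and Gm7115 (0.50). Il18 was closest to Papd7 (0.26), Gm20559 (0.27) and Cited2 (0.28), Il1rn to Phf11c (0.30), Ifi211 (0.36) and Abtb2 (0.43), and Il18bp to Gbp3 (0.52), Pla2g16 (0.55) and Ccl5 (0.55). Il1r2 was closest to Rbm34 (0.24), Rinl (0.26) and Riox2 (0.26), Il1rap to Tec (0.21), Acvr1 (0.22) and Rps6ka3 (0.25), and Nlrp3 to Sema4b (0.16), Diaph2 (0.18) and Cmtm3 (0.19). Among the members the closest pair was Il1rap and Nlrp3, at 0.56, and the farthest was Il1b and Il18bp, at 3.87.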

How the data were processed

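RNA of mouse monocytes was sequenced as non-stranded poly(A) libraries. The authors aligned paired reads with STAR, counted them per gene with Rsubread, normalized with edgeR and deposited log2 CPM for 13085 genes in 16 libraries. GRCm39 is the build named in the submitters' processing notes, and versions are not given in the sources used here. From the deposited log2 values, whole reads (with 0.5 added, divided by the scaled size of the library) were recovered for 100% of values, which gave a depth of 48295939 to 88514341 reads on listed genes. A change of the factor by which a library is scaled shifts all its genes together, whereas quantile normalization shifts them by different amounts. The spread between libraries limits precision more than depth does.

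Groups follow the labels. Stimulus and time were compared in 1 model of 16 libraries with 4 groups (12 residual degrees of freedom), over the 12306 genes that reached 1 CPM in 4 or more libraries. Genotypes at 6 h were compared in 1 model of 8 libraries with 4 groups (4 residual degrees of freedom), over the 12111 genes that reached 1 CPM in 2 or more. The deposited log2 values entered limma (version 3.58.1, R 4.3.3) unchanged, with a trended prior variance, Benjamini-Hochberg adjustment over all genes tested and two-sided tests. The steps were tested on simulated data with planted changes of more than 2-fold and the same dispersion for all genes. This does not bear on differences under 2-fold. CPM are 2 to the power of the deposited log2 values.

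The members and gene lists were chosen with earlier results of these data known. The genes named are the 8 members, Nfam1, in each comparison of stimulus or time the 3 listed pathway genes with the largest rise and fall among those called, any called between genotypes, and the 3 genes closest to each member. Alternatives were leaving low genes in, a minimum mean of 5 CPM, quantile normalization, scaling to the own total of reads, a pseudocount of 2 reads, voom weights, no trend, no minimum fold change, only the groups compared, genotype as a term, 6 h libraries alone, the title or tag alone at 24 h, and leaving out each library. Leaving out the 4 libraries whose labels differ and the common genotype effect were added after the values were seen. Python 3.11.15 was used for the summaries. No count model was used, since the deposited unit is log2 CPM. Of the promoter motifs searched, 1 is not reported here.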

Additional observations from a re-analysis of the deposited data

Results flagged for a closer look

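In 3 of 32 groups of 4 libraries, 1 per gene, stimulus and time, 1 library lay far from the other 3 by Dixon's criterion, which chance gives in about 1 of 20 groups. Il18bp was at 586 CPM in stimulated library 56 at 24 h, against 623 to 626 CPM in the others. Il1r2 was at 6.19 CPM in the unstimulated NFAM1+/+ library 1 at 6 h, against 7.89 to 8.27 CPM, and Nlrp3 at 191 CPM in the unstimulated NFAM1-/- library 4 at 6 h, against 214 to 216 CPM.

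The response to IFN-γ plus CD40L differed between 24 and 6 h in the test of the difference for 5 of the 8 genes. The log2 difference, 24 h minus 6 h, was -2.53 for Il18, -2.35 for Il1rap, -1.77 for Nlrp3, 1.70 for Il1b and 1.20 for Il1r2. In the deposited scaling the stimulated libraries of Il1rap and Nlrp3 lay above the unstimulated ones at 6 h and below them at 24 h.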

How the results depend on the processing

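Of the 22 calls of members in the 5 comparisons of stimulus and time, 18 held under every alternative run. The other 4 were Il1b and Nlrp3 at 6 h and Il1a and Nlrp3 between 24 and 6 h in stimulated cells, whose values stand in the report. The number of members called without the stimulus between 24 and 6 h rose from 2 to 5 with no minimum fold change. The share of all genes called rose there from 20.4% to 62.9%. Leaving out each library in turn gave 0 to 1 members called between the genotypes at 6 h with the stimulus, and 5 to 6, 4, 2 to 3, 4 to 5 and 5 to 6 in the 5 comparisons of stimulus and time. Scaling to each library's own total moved the median of all genes to -0.86 and -0.32 for the stimulus at 6 and 24 h, to 0.42 for time in stimulated cells and to 0.45 for the change of the response, and the share of higher genes among those called from 48.2% to 21.7%, 44.5% to 30.7%, 49.3% to 69.7% and 42.6% to 68.1%.

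Differences near 0 changed sign, none of them called. In that scaling Il1b between 24 and 6 h in stimulated cells was 0.10, and the change of the response was 0.33 for Il1a and 0.28 for Il18bp, against 0.070 and 0.45 after quantile normalization. Without the 4 libraries whose labels differ it was 0.053 and 0.19, and Il18 without the stimulus was -0.12 between the times. Between genotypes at 6 h without the stimulus Il18bp was -0.024 after quantile normalization, -0.053 with voom weights and -0.027 with a common genotype effect, which gave -0.14 for Il18 and 0.11 for Il1rap with the stimulus. Leaving out 1 library turned the sign for Il18 (-0.055 to 0.22) without the stimulus and Il1b (-0.55 to 0.16) with it between the times, for the change of the response of Il1a (-0.27 to 0.14) and Il18bp (-0.28 to 0.028), and between genotypes at 6 h for Il18bp (-0.26 to 0.30 without and -0.25 to 0.10 with the stimulus) and for the difference of the response of Il1a (-0.28 to 0.32) and Il18bp (-0.38 to 0.19). The change of the response of Il1rn passed 2-fold when any 1 of 8 libraries was left out (range over all 16, -1.27 to -0.74). At 24 h the members lower in NFAM1-/- without the stimulus were 5 where the labels agree and 3 by the tag, and with the stimulus 4 where they agree, 2 by the title and 6 by the tag. The cause was not tested. No paired analysis was possible because no 2 groups share library numbers and the labels do not tie libraries to mice. With 2 libraries per genotype the spread between libraries, not depth, limits the genotype comparisons.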
